A study of Mus musculus with 19 samples.

Results

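The genes of the Arp2/3 complex, which starts branches on actin filaments, and of the complex activators WASP and WAVE2 were examined in calf muscle of mice after femoral artery dissection. The set holds 10 genes, chosen by name from the 30774 names carried by the 45281 probes of the array. The choice was made with earlier results of these data known. The complex subunits are Actr2, Actr3, Arpc1a, Arpc1b, Arpc2, Arpc3, Arpc4 and Arpc5, and the activators are Was and Wasf2. All probes whose name equals one of these symbols were taken, 20 in all. Of these, 16 had a detection p-value under 0.05 on at least 3 of the 19 arrays, which left 9 of the 10 genes to test. Actr2, which encodes the actin-related protein Arp2, has 1 probe, which was detected on 0 of 19 arrays, so its transcript was not measured here.

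The Arp2/3 complex binds the side of an existing actin filament, and its Arp2 and Arp3 subunits then serve as the first units of a daughter filament. It is inactive until a nucleation-promoting factor binds it: WASP, encoded by Was, is found mainly in blood cells, N-WASP (Wasl) is widespread, and WAVE2 (Wasf2) acts in a multiprotein complex downstream of the GTPase Rac. Branched actin drives the leading edge of crawling cells and the phagocytic cup, and macrophages and neutrophils depend on it. Several subunits exist as alternative paralogs, among them Arpc1a or Arpc1b, Arpc5 or Arpc5l, and Actr3 or Actr3b.

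Expression was measured on single-colour Illumina bead arrays in the gastrocnemius of mice of the CD1 strain at an age of 2 months. An oligonucleotide with locked nucleic acid bases was injected into the tail vein at 12 mg/kg, either against the hypoxia-induced microRNA miR-210 or with a scrambled sequence. Dissection of the left femoral artery followed 2 days later, and the gastrocnemius was collected 3 days after it. The 5 groups are ischemic muscle after anti-miR-210 (4 arrays), ischemic muscle after scramble (4), non-ischemic muscle after anti-miR-210 (4), non-ischemic muscle after scramble (4), and muscle of untreated mice (3), for which the labels give neither an oligonucleotide nor surgery. The labels do not say whether the replicates are separate mice, nor whether a non-ischemic muscle is the other leg of an operated mouse, so the p-values reflect how far these samples vary, and that variation could be technical.

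The sequences of the oligonucleotides and of their target define the treatment, with the miRNA seed, bases 2 to 8, in capitals. The miRNA is credited to RefSeq (GRCm38.p6, chr7:141221407-141221428, minus strand), and the oligonucleotides are as given in the labels.
mmu-miR-210-3p: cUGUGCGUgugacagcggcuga
anti-miR-210: gctgtcacacgcaca
scramble: cgtctagccacctag
The anti-miR-210 oligonucleotide is the reverse complement of bases 2 to 16 of the miRNA and so covers the whole seed, whereas the scrambled sequence has no such match.

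Before normalization, the mean intensity per array was 229.5 ± 37.7 for the anti-miR-210 and 153.8 ± 28.6 for the scramble ischemic group, 204.4 ± 24.2 for the anti-miR-210 and 226.4 ± 16.2 for the scramble non-ischemic group (SD, n = 4 each), and 253.2 ± 43.0 for untreated muscle (SD, n = 3). All 12 skeletal muscle fibre markers were detected on every array, as the tissue label requires. Of 8 hepatocyte markers, 6 were tested. All 6 were detected on the 3 untreated arrays and on scramble non-ischemic replicate 1, whose mean log2 level of 8.3 stood apart from 4.34 to 5.02 on the other 15 oligonucleotide arrays and lay below the 8.78, 10.72 and 12.41 of the untreated arrays. The share of liver RNA this represents was not tested, and results are also given without scramble non-ischemic replicate 1 and without untreated replicates 2 and 3. Every comparison with untreated muscle keeps at least 1 array with these transcripts.

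Most of the 9 tested genes had more mRNA in ischemic than in non-ischemic muscle, while the paralogs Arpc5l and Actr3b, outside the set, had less. After scramble, 8 of the 9 tested genes rose and none fell, against 27% of all 14646 tested genes that rose and 51.6% that changed in either direction (limma, adjusted p under 0.05). After anti-miR-210, 7 of 9 rose and none fell, against 26.5% that rose and 50.9% that changed. Because the genes were chosen with earlier results of these data known, the excess over these shares is a description and not independent evidence. The median log2 change of the 9 genes was 1.71 after scramble and 1.77 after anti-miR-210, while the median of all genes was 0.01 in each. The rise was uneven: Arpc1b, Was and Arpc5 rose most, whereas Arpc1a, the paralog of Arpc1b, had the smallest change in both comparisons. Arpc1a did not pass after scramble, and its result after anti-miR-210 (adjusted p = 0.0522) depended on the processing: it passed under 10 of 20 alternatives.

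The groups of arrays separated in the same way. After scramble, every ischemic array lay above every non-ischemic array in 8 of 9 genes, a pattern found in 25% of all tested genes. After anti-miR-210 the count was 7 of 9, against 23.3%. In all 9 of 9 genes both ischemic group means lay above the means of the anti-miR-210 non-ischemic, scramble non-ischemic and untreated groups. The share of all genes with this order of means was not computed, so how unusual it is cannot be told. In Arpc1a the gap was small, with means of 8.09 in scramble ischemic and 8 in untreated muscle. Within the ischemic pair, and among the non-ischemic and untreated groups, no difference between neighbouring means of these genes passed limma's test. Levels below are normalized log2 intensities, given for replicates 1 to 4 (1 to 3 in untreated muscle), and differences are log2 changes with their standard error. Levels of different genes come from different probes and are not set against each other.

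**Figure D1:**
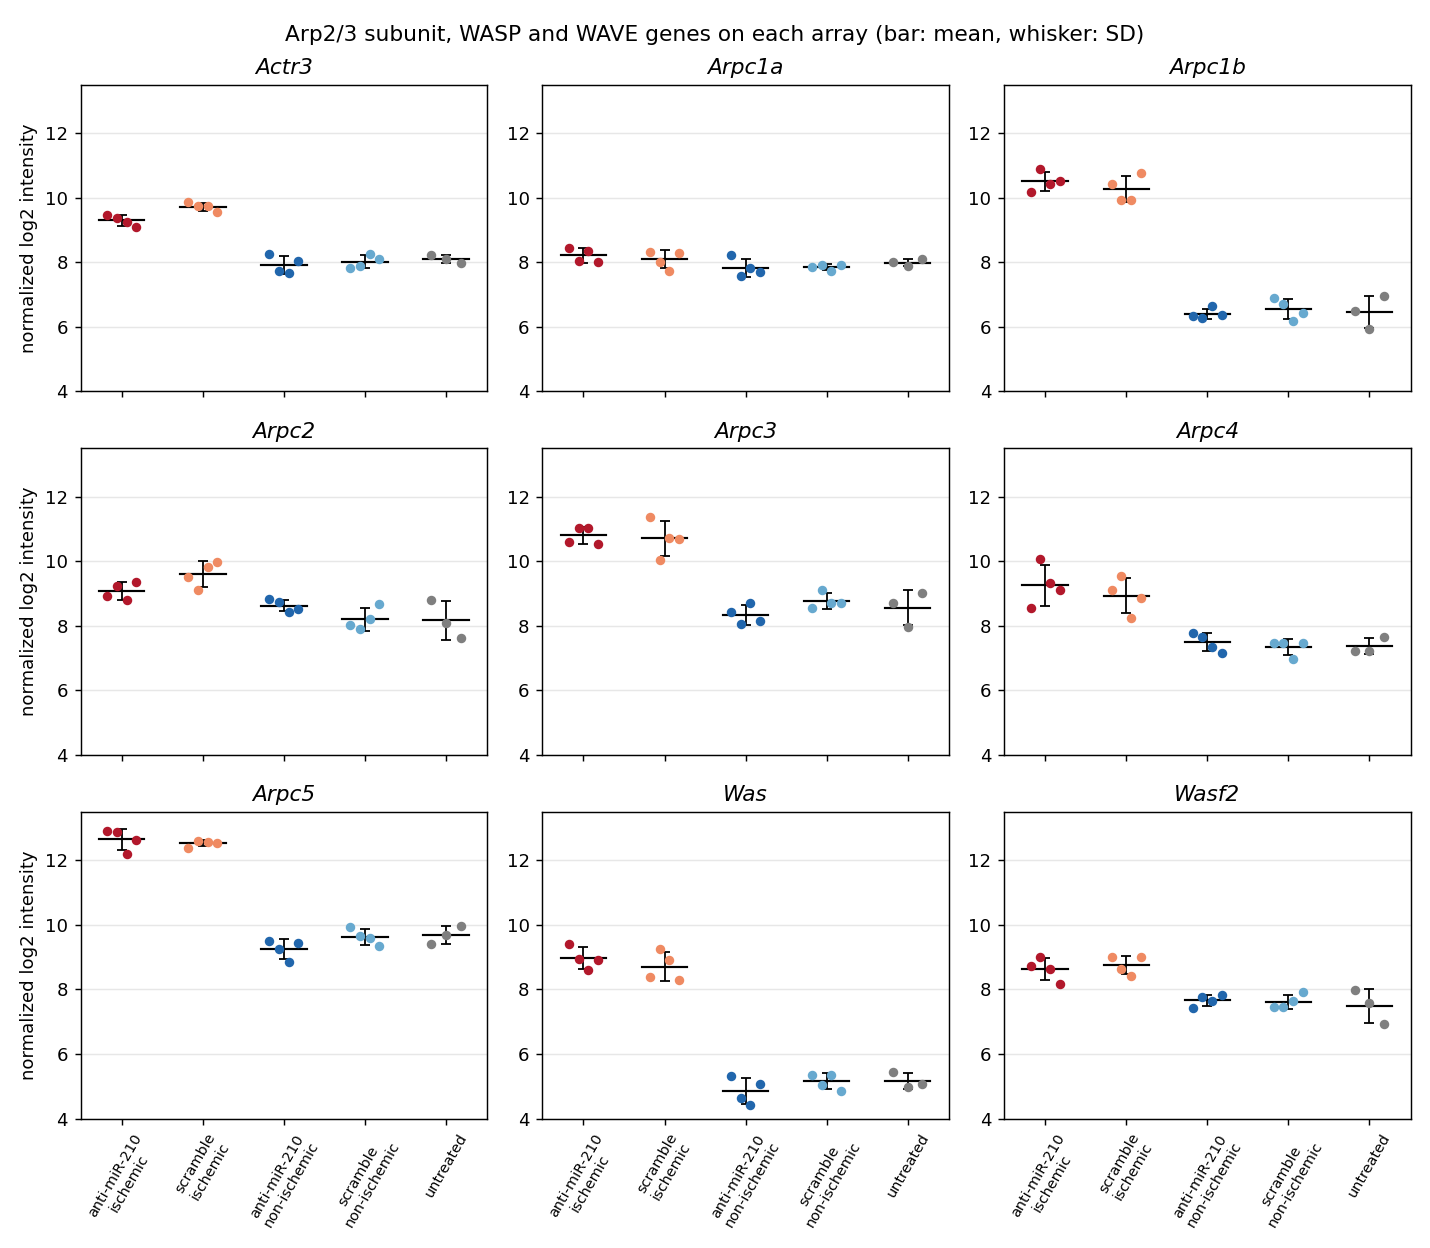
Normalized log2 intensity of the 9 tested genes on each of the 19 arrays, with the group mean (bar) and SD (whisker), 4 arrays per group and 3 for untreated muscle. Both ischemic groups stand clear of the other 3 in Arpc1b, Was, Arpc5, Actr3, Arpc3 and Arpc4, while the 5 groups of Arpc1a overlap.

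Actr3 encodes Arp3, an actin-related protein that together with Arp2 forms the first units of the new branch. Its levels were 9.47, 9.39, 9.26 and 9.09 in anti-miR-210 ischemic muscle, 9.86, 9.74, 9.75 and 9.55 in scramble ischemic muscle, 8.27, 7.73, 7.68 and 8.04 in non-ischemic muscle after anti-miR-210, 7.83, 7.89, 8.25 and 8.11 in scramble non-ischemic muscle, and 8.22, 8.12 and 7.98 in untreated muscle. No ischemic array reached down to a non-ischemic array. The change was 1.71 ± 0.15 after scramble (3.26-fold, limma adjusted p = 1.88e-08) and 1.37 ± 0.15 after anti-miR-210 (2.59-fold, adjusted p = 2.9e-07). Actr3 has another probe, detected on 0 arrays.

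Arpc1a and Arpc1b encode the alternative forms of the Arpc1 subunit, a protein of WD repeats that contacts the activators; Arpc1b is the main form in human blood cells. Arpc1b stood at 10.18, 10.9, 10.44 and 10.51 in anti-miR-210 ischemic muscle, 10.42, 9.94, 9.93 and 10.77 in scramble ischemic muscle, 6.35, 6.29, 6.64 and 6.37 in non-ischemic muscle after anti-miR-210, 6.89, 6.7, 6.19 and 6.42 in scramble non-ischemic muscle, and 6.49, 5.94 and 6.95 in untreated muscle. The 8 ischemic arrays lay far above all others. Arpc1b rose by 3.71 ± 0.23 after scramble (13.1-fold, limma adjusted p = 2.74e-10) and by 4.09 ± 0.23 after anti-miR-210 (17.1-fold, adjusted p = 5.89e-11). Its other 2 probes also rose, by 3.62 and 2.79 after scramble and by 3.36 and 2.67 after anti-miR-210.

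Arpc1a, in contrast, had 8.46, 8.05, 8.35 and 8.01 in anti-miR-210 ischemic muscle, 8.33, 8.01, 7.73 and 8.3 in scramble ischemic muscle, 8.22, 7.57, 7.84 and 7.69 in non-ischemic muscle after anti-miR-210, 7.86, 7.92, 7.74 and 7.91 in scramble non-ischemic muscle, and 8.01, 7.88 and 8.1 in untreated muscle. The groups overlapped. Its change was 0.23 ± 0.16 after scramble (95% interval -0.1 to 0.57, limma adjusted p = 0.245) and 0.39 ± 0.16 after anti-miR-210 (interval 0.05 to 0.72, adjusted p = 0.0522). Its probes did not move alike. The next brightest probe rose by 1.33 ± 0.24 after scramble (adjusted p over probes = 0.000124) and by 1.68 ± 0.24 after anti-miR-210 (adjusted p = 9.79e-06), the third had changes of 0.07 ± 0.24 and 0.32 ± 0.24 that did not pass, and the last was detected on 0 arrays. With the mean of its probes in place of the brightest, Arpc1a passed in both comparisons, at 0.54 (adjusted p = 0.0179) after scramble and 0.8 (adjusted p = 0.00124) after anti-miR-210; with median scaling the sign after scramble turned to -0.24. After anti-miR-210 the brightest probe's change also passed with no background correction, an offset of 50, cyclic loess, the authors' table or array brightness as a covariate, and over all 20 alternatives the adjusted p ran from 0.00124 to 0.163. It passed as well without anti-miR-210 ischemic replicate 2 (adjusted p = 0.0472) or 4 (adjusted p = 0.0376) or non-ischemic replicate 1 (adjusted p = 0.0105). The files do not give probe positions, so which transcript each probe reads is not known here.

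Arpc2 and Arpc4 form the core of the complex that holds the mother filament. Arpc4 stood at 8.54, 10.07, 9.32 and 9.11 in anti-miR-210 ischemic muscle, 9.11, 9.55, 8.26 and 8.85 in scramble ischemic muscle, 7.77, 7.67, 7.36 and 7.17 in non-ischemic muscle after anti-miR-210, 7.47, 7.46, 6.98 and 7.47 in scramble non-ischemic muscle, and 7.23, 7.23 and 7.65 in untreated muscle. Ischemic and non-ischemic arrays did not overlap, although the ischemic arrays were more widely spread. Arpc4 rose by 1.6 ± 0.28 after scramble (3.03-fold, limma adjusted p = 8.4e-05) and by 1.77 ± 0.28 after anti-miR-210 (3.4-fold, adjusted p = 2.94e-05). Its dimmer probe, detected on 9 arrays, rose by 0.54 ± 0.18 after scramble (adjusted p = 0.0195). After anti-miR-210 that probe was detected on 4 of 4 ischemic and 0 of 4 non-ischemic arrays and was at least 1.39-fold higher (adjusted p = 0.00111); such a bound sets the ischemic mean against the lowest detected signal of each non-ischemic array.

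Arpc2 had levels of 8.92, 9.25, 8.79 and 9.36 in anti-miR-210 ischemic muscle, 9.53, 9.1, 9.82 and 9.99 in scramble ischemic muscle, 8.83, 8.73, 8.44 and 8.53 in non-ischemic muscle after anti-miR-210, 8.02, 7.89, 8.21 and 8.69 in scramble non-ischemic muscle, and 8.81, 8.08 and 7.63 in untreated muscle. Its groups separated after scramble and overlapped after anti-miR-210, where the lowest ischemic array (8.79) fell below the highest non-ischemic array (8.83). The change was 1.41 ± 0.24 after scramble (2.65-fold, limma adjusted p = 6.53e-05) and 0.45 ± 0.24 after anti-miR-210, which did not pass (adjusted p = 0.131). That the threshold was passed after one oligonucleotide alone does not show that the responses differ; the test of the difference is given further on.

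Arpc3 and Arpc5 are smaller subunits, Arpc3 lying beside Arp3 and Arpc5 at the Arp2 end of the complex. Arpc3 stood at 10.59, 11.04, 11.04 and 10.54 in anti-miR-210 ischemic muscle, 11.39, 10.05, 10.71 and 10.7 in scramble ischemic muscle, 8.43, 8.06, 8.72 and 8.15 in non-ischemic muscle after anti-miR-210, 8.54, 9.12, 8.7 and 8.72 in scramble non-ischemic muscle, and 8.72, 7.97 and 9.01 in untreated muscle. All ischemic arrays lay above all others. Arpc3 rose by 1.94 ± 0.26 after scramble (3.84-fold, limma adjusted p = 3.56e-06) and by 2.46 ± 0.26 after anti-miR-210 (5.51-fold, adjusted p = 2.12e-07).

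Arpc5 had 12.9, 12.87, 12.2 and 12.64 in anti-miR-210 ischemic muscle, 12.39, 12.6, 12.57 and 12.55 in scramble ischemic muscle, 9.49, 9.24, 8.84 and 9.45 in non-ischemic muscle after anti-miR-210, 9.92, 9.66, 9.58 and 9.34 in scramble non-ischemic muscle, and 9.4, 9.68 and 9.98 in untreated muscle. The gap between ischemic and other arrays exceeded the spread within any group. Arpc5 rose by 2.9 ± 0.18 after scramble (7.47-fold, limma adjusted p = 3.71e-10) and by 3.4 ± 0.18 after anti-miR-210 (10.5-fold, adjusted p = 3.68e-11). Of its dimmer probes, the brighter, detected on 12 arrays, rose by 2.03 ± 0.25 after scramble (adjusted p = 1.9e-06) and was at least 4.88-fold higher after anti-miR-210 (adjusted p = 2.47e-07), and the other was detected on 2 arrays and not tested.

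Among the activators, Was rose most. Its levels were 9.42, 8.93, 8.6 and 8.91 in anti-miR-210 ischemic muscle, 8.38, 9.24, 8.9 and 8.28 in scramble ischemic muscle, 5.33, 4.63, 4.43 and 5.06 in non-ischemic muscle after anti-miR-210, 5.35, 5.04, 5.36 and 4.86 in scramble non-ischemic muscle, and 5.45, 4.98 and 5.07 in untreated muscle. Non-ischemic and untreated levels were close to the lowest detectable signal (4.4 to 4.65 over arrays), and the 4.43 was below it. The change was 3.55 ± 0.24 after scramble (11.7-fold, limma adjusted p = 7.42e-10) and 4.1 ± 0.24 after anti-miR-210 (17.2-fold, adjusted p = 9.05e-11).

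Wasf2, whose product relays Rac signals to the complex, stood at 8.72, 8.99, 8.63 and 8.16 in anti-miR-210 ischemic muscle, 9, 8.62, 8.42 and 8.99 in scramble ischemic muscle, 7.44, 7.77, 7.63 and 7.83 in non-ischemic muscle after anti-miR-210, 7.46, 7.47, 7.63 and 7.92 in scramble non-ischemic muscle, and 7.97, 7.59 and 6.92 in untreated muscle. Ischemic and non-ischemic arrays did not overlap after either oligonucleotide, though the gap was narrow. Wasf2 rose by 1.14 ± 0.21 after scramble (2.2-fold, limma adjusted p = 0.000172; adjusted p = 0.0507 with median scaling) and by 0.95 ± 0.21 after anti-miR-210 (1.94-fold, adjusted p = 0.000918). Its other probe, detected on 15 arrays, rose by 0.54 ± 0.19 and 0.92 ± 0.19 (adjusted p = 0.0236 and 0.000485).

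Over all probes of these genes, 14 of 16 rose after scramble and 13 of 16 after anti-miR-210, against 23.6% and 23.8% of the 21083 probes tested, and none fell. All 16 had a change above 0 in both comparisons. The probes that did not pass were those of Arpc1a with the highest and the third highest mean and, after anti-miR-210, the probe of Arpc2. Probes of the same gene share its transcripts and are not independent.

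**Figure D2:**
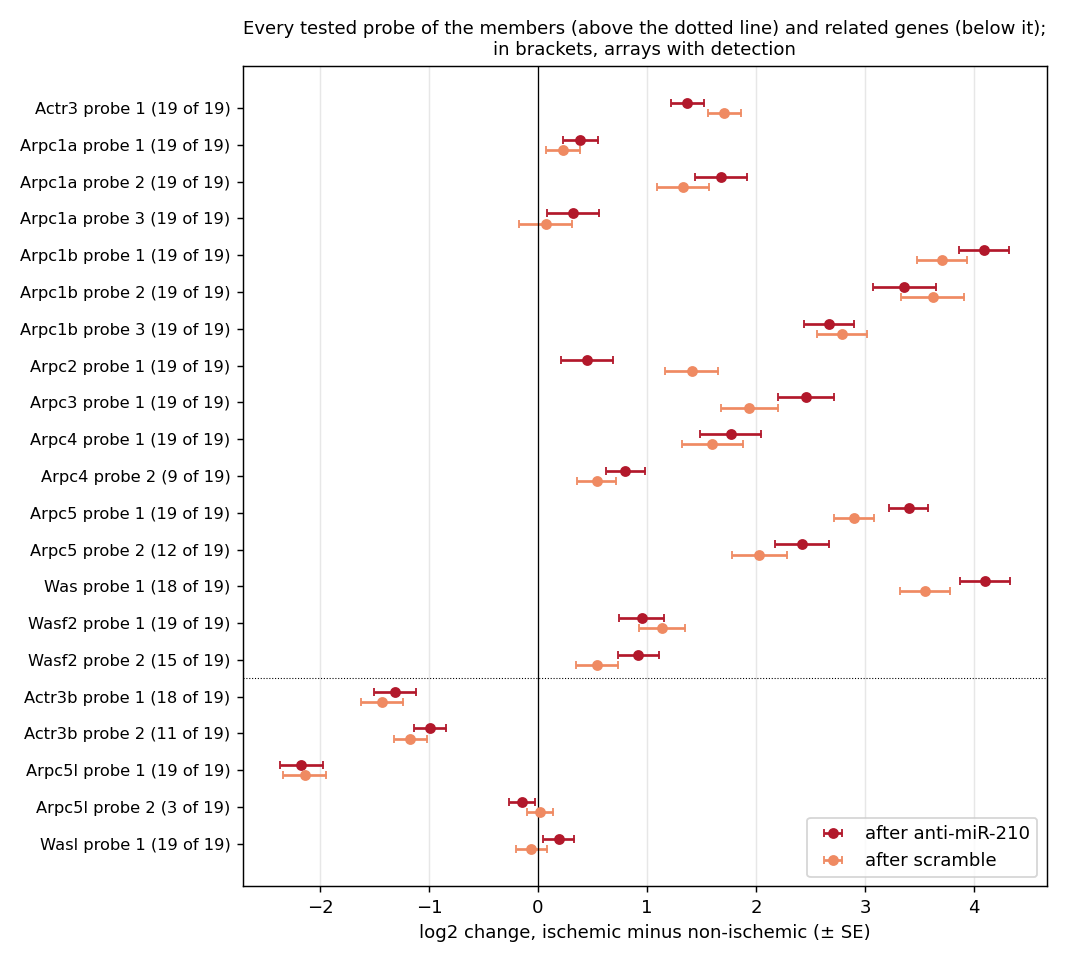
Log2 change of ischemic against non-ischemic muscle, with its SE, for every tested probe of the 9 genes (above the dotted line) and of the related genes Actr3b, Arpc5l and Wasl (below it), after anti-miR-210 and after scramble. All 3 probes of Arpc1b lie between 2.67 and 4.09, and probe 2 of Arpc1a stands apart from its probes 1 and 3.

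Arpc5l and Actr3b fell where their paralogs Arpc5 and Actr3 rose. Arpc5l, the alternative form of Arpc5, fell by 2.14 ± 0.21 on the log2 scale after scramble (4.41-fold lower, limma adjusted p = 7.3e-08) and by 2.17 ± 0.21 after anti-miR-210 (4.49-fold lower, adjusted p = 6.53e-08). Its levels were 6.22, 6.04, 6.57 and 5.91 in anti-miR-210 ischemic muscle, 6.53, 6.06, 5.73 and 5.94 in scramble ischemic muscle, 8.37, 8.41, 8.61 and 8.02 in non-ischemic muscle after anti-miR-210, 7.91, 8.06, 8.48 and 8.39 in scramble non-ischemic muscle, and 8.21, 8.24 and 7.58 in untreated muscle, so that every ischemic array lay below every other array. A dimmer Arpc5l probe, detected on 3 arrays, had changes of 0.02 and -0.15 that did not pass.

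Actr3b, the alternative form of Arp3, had 4.64, 4.6, 4.72 and 4.62 in anti-miR-210 ischemic muscle, 4.93, 4.69, 5.2 and 4.21 in scramble ischemic muscle, 6.45, 5.9, 5.64 and 5.84 in non-ischemic muscle after anti-miR-210, 6.07, 6.5, 6.13 and 6.02 in scramble non-ischemic muscle, and 6.11, 5.88 and 6.17 in untreated muscle. Again no ischemic array reached the others, and most ischemic levels were near the floor of detection. Actr3b fell by 1.43 ± 0.19 after scramble (2.69-fold lower, limma adjusted p = 4.63e-06) and by 1.31 ± 0.19 after anti-miR-210 (2.48-fold lower, adjusted p = 1.26e-05), and its other probe was detected on all non-ischemic and untreated arrays and on 0 of 8 ischemic arrays. Wasl, the widespread relative of Was, had changes of -0.06 ± 0.14 and 0.19 ± 0.14 that did not pass (adjusted p = 0.75 and 0.286), although with median scaling the change after scramble was -0.59 (adjusted p = 0.0209).

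Whether the brightest probes of a pair changed by unequal amounts was tested on the per-array difference of their log2 levels. The test uses only the change between groups and not which gene is more abundant. For Arpc1b minus Arpc1a that difference was 1.72, 2.85, 2.1 and 2.5 in anti-miR-210 ischemic muscle, 2.1, 1.92, 2.2 and 2.46 in scramble ischemic muscle, -1.87, -1.28, -1.2 and -1.31 in non-ischemic muscle after anti-miR-210, and -0.98, -1.22, -1.55 and -1.49 in scramble non-ischemic muscle. The 8 ischemic arrays lay above all 8 non-ischemic arrays, as they did for the other 3 pairs. The shift, ischemic minus non-ischemic, was 3.59 for Arpc1b minus Arpc1a, 5.3 for Arpc5 minus Arpc5l, 2.91 for Actr3 minus Actr3b and 3.76 for Was minus Wasl. An exact two-sided permutation test within oligonucleotide gave p = 0.000408 for each of the 4 pairs, the smallest value this design allows, and 0.000408 after Benjamini-Hochberg adjustment over the pairs. Probes of a single gene also changed by unequal amounts. The p-value therefore cannot tell unequal change of 2 genes from unequal response of their probes. After scramble the Arpc1b probes rose by 3.71, 3.62 and 2.79, and the tested Arpc1a probes had changes of 0.23, 1.33 and 0.07. Over the processing alternatives the shifts ranged from 2.71 to 3.67, 3.8 to 5.43, 1.86 to 2.97 and 2.34 to 3.83, in the order given.

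**Figure D3:**
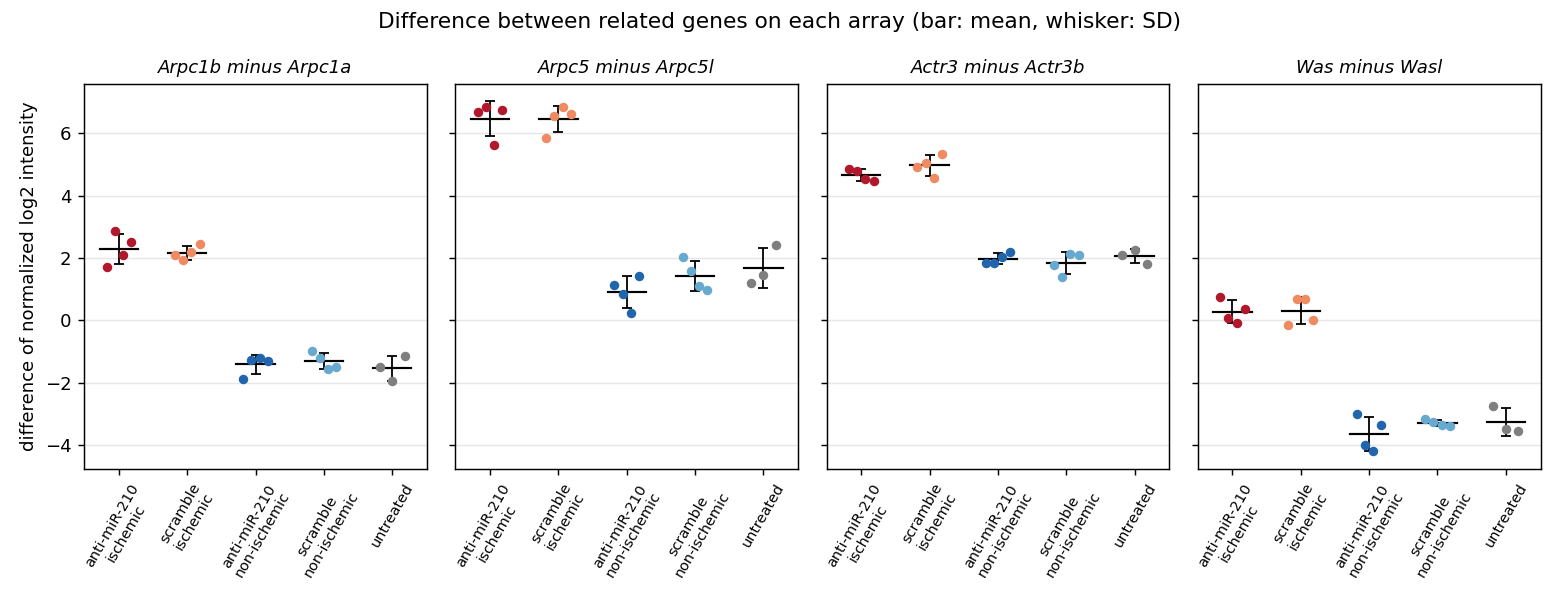
Difference of normalized log2 intensity between related genes on each array, with group mean (bar) and SD (whisker). The position on the axis depends on the probes, so the shift between groups is what can be read: in each of the 4 pairs the 8 ischemic arrays lie above the 8 non-ischemic and 3 untreated arrays.

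Arpc1a and Arpc1b lie next to each other on chromosome 5 with 0 protein-coding genes between them, and their changes in ischemic muscle were unequal. Their promoters are shown with that of Was, which rose with Arpc1b. They run from 250 bases before to 50 after the start site on the gene's strand (RefSeq, GRCm38.p6): Arpc1b chr5:145114006-145114305, plus strand, Arpc1a chr5:145083619-145083918, plus strand, and Was chrX:8090442-8090741, minus strand. Capitals mark GAGGAA on either strand, the core letters bound by the myeloid transcription factor PU.1.
Arpc1b: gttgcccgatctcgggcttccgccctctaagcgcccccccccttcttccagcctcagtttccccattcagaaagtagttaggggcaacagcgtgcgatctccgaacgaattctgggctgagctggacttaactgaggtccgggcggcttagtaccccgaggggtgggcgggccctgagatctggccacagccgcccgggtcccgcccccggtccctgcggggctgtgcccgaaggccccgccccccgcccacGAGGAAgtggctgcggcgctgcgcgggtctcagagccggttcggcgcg
Arpc1a: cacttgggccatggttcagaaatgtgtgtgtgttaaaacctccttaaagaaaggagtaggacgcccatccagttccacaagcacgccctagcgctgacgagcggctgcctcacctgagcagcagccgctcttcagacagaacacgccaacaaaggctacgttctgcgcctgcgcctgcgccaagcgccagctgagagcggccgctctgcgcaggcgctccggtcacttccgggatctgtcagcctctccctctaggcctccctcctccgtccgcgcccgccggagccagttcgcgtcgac
Was: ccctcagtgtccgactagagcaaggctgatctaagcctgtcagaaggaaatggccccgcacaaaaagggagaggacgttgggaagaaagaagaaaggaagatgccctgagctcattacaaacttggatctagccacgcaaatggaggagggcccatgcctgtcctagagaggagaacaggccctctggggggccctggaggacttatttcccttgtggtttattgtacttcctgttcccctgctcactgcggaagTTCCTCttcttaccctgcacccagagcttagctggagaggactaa
These letters stood in the windows of Arpc1b and Was and not in that of Arpc1a. They occurred in 2 of the 10 promoters of the set, against 9289 of 32851 (28.3%) of all mouse promoters in the table, so such a match is common. Actr3, Arpc3, Arpc4, Arpc5 and Wasf2, which also rose after both oligonucleotides, had no match. A match describes these letters only. The GC content was 69.3% for Arpc1b, 63.0% for Arpc1a and 53.3% for Was.

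Most tested markers of monocytes and macrophages, neutrophils and platelets rose in the same comparisons, while of 2 tested lymphocyte markers 1 passed, after anti-miR-210 alone. Among all tested genes, 26.5% rose after anti-miR-210 and 27% after scramble. Of 12 monocyte and macrophage markers 11 rose after each oligonucleotide, and their summed linear intensity was 13540 to 23901 in anti-miR-210 ischemic, 11181 to 18988 in scramble ischemic, 688 to 885 in anti-miR-210 non-ischemic, 765 to 1145 in scramble non-ischemic and 1063 to 1585 in untreated muscle. Of 7 tested neutrophil markers out of 8 listed, 5 rose after anti-miR-210 and 6 after scramble, with sums of 996 to 4103, 1977 to 8007, 152 to 650, 206 to 450 and 172 to 301 in the same order. Platelet and megakaryocyte markers summed to 881 to 1827 and 1427 to 2801 in the ischemic groups, against 106 to 275 over the non-ischemic and untreated arrays, and 3 of 4 rose in each comparison. Of 8 lymphocyte markers, 2 were detected on enough arrays to test, Cd3e and Nkg7. Nkg7 passed after anti-miR-210 with a change of 0.48 ± 0.18 (limma adjusted p = 0.0295), with detection on 3 of 4 ischemic and 0 of 4 non-ischemic arrays, and had a change of 0.03 ± 0.18 after scramble that did not pass. Cd3e did not pass in either comparison. The lymphocyte genes Cd3g, Ms4a1, Cd4 and Cd8a did not pass the detection filter, and no probe carried the name of the defining neutrophil gene Ly6g or of Cd79a.

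Markers of other muscle cells moved less uniformly. Summed skeletal muscle fibre markers were lower in both ischemic groups, at 108297 to 118006 after anti-miR-210 and 97078 to 119328 after scramble, against 126379 to 138214 and 123924 to 137911 in the matching non-ischemic groups. Of these 12 markers, 3 fell and 2 rose after anti-miR-210, and 5 fell and 2 rose after scramble. Among all tested genes, 50.9% changed and 26.5% rose after anti-miR-210, and 51.6% changed and 27% rose after scramble. The fibre marker counts were near the share that changed. Endothelial markers rose in 3 of 6 after anti-miR-210 and in 4 of 6 after scramble, fibroblast markers in 5 of 5 and 2 of 5, and tested satellite cell and regeneration markers in 3 of 4 and 3 of 4, while Pax7 and Myf5 did not pass the filter. The part of these cell types in the change of the Arp2/3 genes was not tested. In RNA of whole muscle, fewer cells of a type and less RNA per cell cannot be told apart, and likewise more cells and more RNA per cell.

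The other genes of actin assembly give the setting. Of 86 genes in 9 lists, 77 were tested. After scramble 38 of them rose, 14 fell and 25 did not pass, with a median change of 0.39, and after anti-miR-210 the counts were 39, 19 and 19 with a median of 0.42. The share that rose was 49.4% after scramble and 50.6% after anti-miR-210, above the share of all genes given earlier but below that of the 9 Arp2/3 and activator genes. These lists too were chosen with earlier results of these data known. Wasf3, Jmy, Nck2, Arpin, Gmfb, Capza2, Cap2 and Daam2 did not pass the detection filter and were not tested, and no probe carried the name Actg1.

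Upstream of the complex, several genes known from signalling in blood cells rose. Nckap1l, the blood cell subunit of the WAVE complex also called Hem1, rose by 4.42 ± 0.19 after scramble (21.5-fold, limma adjusted p = 3e-12) and by 4.84 ± 0.19 after anti-miR-210 (28.6-fold, adjusted p = 9.8e-13). Among 8 WAVE complex genes, 6 rose and 0 fell after scramble, with a median of 1.39, and 6 rose and 1 fell after anti-miR-210, with a median of 1.29, against the 27% and 26.5% of all genes that rose. The gene that fell was Nckap1, the widespread relative of Nckap1l, at -0.64 ± 0.2 (adjusted p = 0.0114), while its change after scramble, -0.46 ± 0.2, did not pass (adjusted p = 0.0604). Abi1, an adaptor in that complex, rose by 1.63 ± 0.15 after scramble, but its other 2 probes had changes of -0.15 and -0.22 that did not pass. Vav1, a signalling protein of blood cells, rose by 5.1 ± 0.22 after scramble (34.2-fold, adjusted p = 2.81e-12). Its scramble non-ischemic mean of 4.92, with detection on 3 of 4 arrays, was close to the floor of detection, so the fold is imprecise. Pstpip1, a blood cell adaptor that binds WASP, rose by 4.27 ± 0.32 (adjusted p = 3.45e-09). Pstpip1 was detected on 4 of 4 ischemic and 1 of 4 non-ischemic scramble arrays, so the size of its change rests on signals at the floor of detection and no fold is given. Trip10, a Cdc42-binding protein, fell by 1.42 ± 0.17 after scramble and Nck1, an adaptor for N-WASP, by 0.71 ± 0.17, a call lost with array brightness as a covariate (-0.38, adjusted p = 0.205).

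Partners of the WASP family did not move as a block. Of 8 tested, 4 rose, 1 fell and 3 did not pass after scramble, and 3 rose, 1 fell and 4 did not pass after anti-miR-210. The share of all tested genes that rose was 27% and 26.5%. Hcls1, the blood cell relative of cortactin, rose by 2.68 ± 0.2 (6.42-fold, limma adjusted p = 2.43e-09), with detection on 2 of 4 non-ischemic scramble arrays, and Wipf1, the WASP-interacting protein, by 1.26 ± 0.2 (2.39-fold, adjusted p = 3.5e-05), whereas its relative Wipf3 fell by 1.78 ± 0.17 (3.43-fold lower, adjusted p = 9.17e-08). In the WASH complex, which activates Arp2/3 on endosomes, 1 of 5 genes rose after scramble, Washc4, by 1.08 ± 0.17 (adjusted p = 2.03e-05, and 0.0705 with median scaling), and 4 did not pass, with a median of 0.06. After anti-miR-210 the median was 0.01, 1 rose and 1 fell, Washc1, at -0.54 ± 0.19 (adjusted p = 0.0225), against -0.16 after scramble, which did not pass (adjusted p = 0.508).

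Most tested genes that restrain or take apart branches rose as well. Of 5 tested out of 7 listed, 4 rose and 1 fell after each oligonucleotide, with a median of 2.88 after scramble. Among all tested genes, 27% rose after scramble and 26.5% after anti-miR-210. Coro1a, the blood cell coronin, rose by 4.29 ± 0.2 (19.6-fold, limma adjusted p = 7.27e-12), and Coro1b, a coronin that displaces Arp2/3 from branches, by 2.61 ± 0.16 (6.11-fold, adjusted p = 3.75e-10), although another Coro1b probe had a change of -0.02 that did not pass. Further Coro1a probes rose by 4.24, 2.26 and 1.74 after scramble. Pick1 fell by 1.13 ± 0.26 (2.19-fold lower, adjusted p = 0.00121, and 0.0751 with array brightness as a covariate).

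In filament turnover and monomer supply, 9 of 15 genes rose and 4 fell after each oligonucleotide, with a median of 1.23 after scramble and 1.1 after anti-miR-210. The share of all tested genes that rose was 27% after scramble and 26.5% after anti-miR-210. Capg, the capping protein of macrophages, rose by 4.41 ± 0.31 (21.2-fold, limma adjusted p = 1.73e-09), and the widespread profilin Pfn1 by 1.67 ± 0.17 (3.19-fold, adjusted p = 1.73e-07, and 0.334 with median scaling). Another probe of each rose less after scramble, by 1.02 for Capg and 1.05 for Pfn1. Pfn2, a relative of Pfn1, fell by 3.02 ± 0.28 (8.11-fold lower, adjusted p = 4.7e-08), and Capzb, a capping protein subunit also found at the Z-disc, by 2.2 ± 0.25 (4.6-fold lower, adjusted p = 6.84e-07). Further probes changed by -2.82 and -0.48 for Pfn2 and by -2.87, -0.85 and -0.03 for Capzb, the last of which did not pass. The size of these changes thus depends on the probe.

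Genes that make unbranched filaments changed in both directions. Of 14 tested, 2 rose, 4 fell and 8 did not pass after scramble, with a median of -0.04, and 2 rose, 6 fell and 6 did not pass after anti-miR-210, with a median of -0.3. Among all tested genes, 27% rose and 51.6% changed in either direction after scramble, and 26.5% and 50.9% after anti-miR-210. Fmnl3, a formin, rose by 2.14 ± 0.18 (4.42-fold, limma adjusted p = 1.41e-08), and the formin Diaph3 had a change of 0.42 ± 0.15 (adjusted p = 0.0308), with detection on 2 of 4 ischemic and 0 of 4 non-ischemic scramble arrays; the Diaph3 call was lost without scramble ischemic replicate 1 or 2 (adjusted p = 0.0976 and 0.126) or non-ischemic replicate 1 or 2 (adjusted p = 0.0607 and 0.0632), and with only the groups compared in the fit (adjusted p = 0.0637). Lmod3, the leiomodin of skeletal muscle, fell by 2.37 ± 0.28 (5.17-fold lower, adjusted p = 1.03e-06) and Fhod3, a formin of striated muscle, by 1.35 ± 0.19 (2.56-fold lower, adjusted p = 6.93e-06), with detection on 2 of 4 ischemic arrays. Of 5 actins, 3 rose after scramble: Actb, the cytoplasmic form, had a change of 0.88 ± 0.13 and Acta1, the skeletal form, one of 0.45 ± 0.12. The other 4 probes of Actb had changes of -0.1, 1.87, -0.22 and 2.32, and with median scaling the changes after anti-miR-210 turned to -0.08 for Actb and -0.52 for Acta1, so no direction is drawn for them. After anti-miR-210, 3 rose and 1 fell, Actc1, the cardiac form, at -2.28 ± 0.86 (adjusted p = 0.0341), against -0.16 after scramble, which did not pass. After anti-miR-210, Nck1 and Diaph3 did not pass (limma adjusted p = 0.0755 and 0.281), and every other gene named here from these lists that passed after scramble passed with the same sign.

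**Figure D4:**
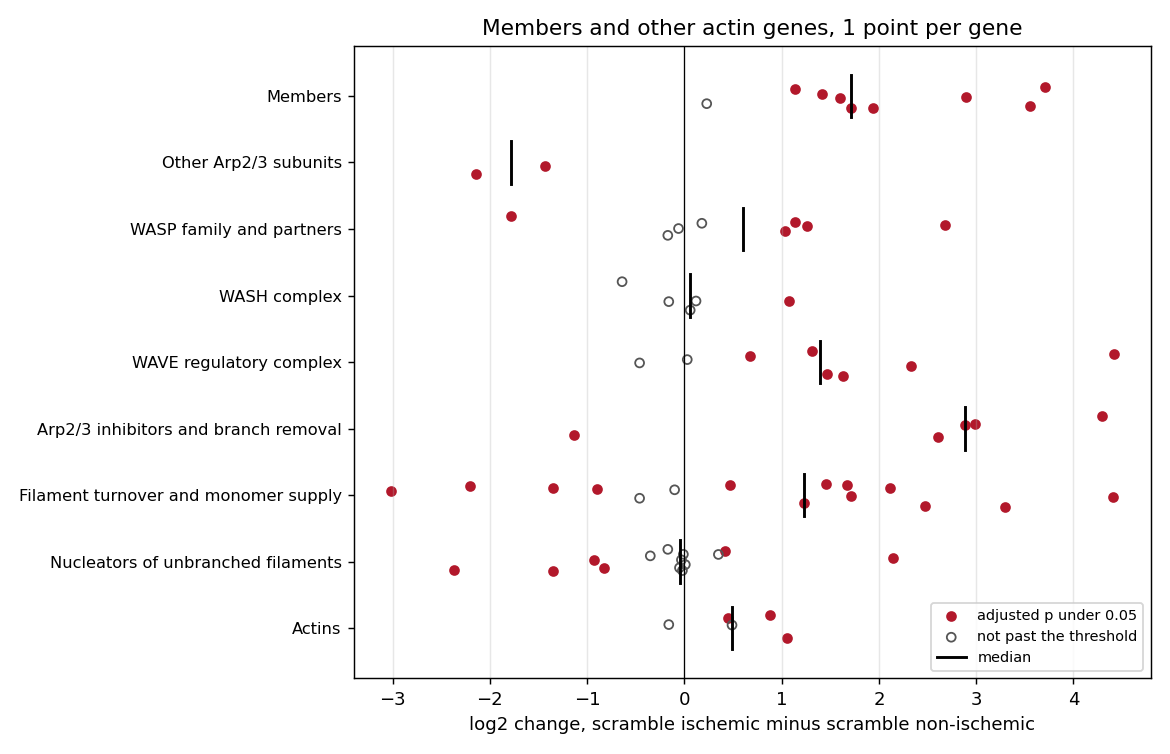
Log2 change of scramble ischemic against scramble non-ischemic muscle, 1 point per gene, for the 9 tested Arp2/3 and activator genes (top row, members) and 8 of the lists of related actin genes, with filled points at a limma adjusted p under 0.05 and bars at the medians. The top row has its median at 1.71, the inhibitors of the complex theirs at 2.88 and the nucleators of unbranched filaments theirs at -0.04.

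The anti-miR-210 oligonucleotide was compared with scramble to ask whether miR-210 shapes these levels. In ischemic muscle, none of the 9 genes was called by limma, while 1.09% of all tested genes were, and 2 of 9 had an unadjusted p under 0.05. The changes lay between -0.53 and 0.32, with adjusted p from 0.155 to 0.918 and 95% intervals that together span -1.03 to 0.9. Actr3 had the smallest p: it was -0.42 ± 0.15 (95% interval -0.73 to -0.12, limma adjusted p = 0.155), and each anti-miR-210 array, 9.09 to 9.47, lay below each scramble array, 9.55 to 9.86. That separation, in this direction, occurred in 1 of the 9 genes and in 2.87% of all tested genes. Arpc2 followed with -0.53 ± 0.24 (limma adjusted p = 0.283), and its arrays overlapped.

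In non-ischemic muscle none of the 9 genes was called, against 0.0205% of all genes, and 0 had an unadjusted p under 0.05 in limma. The changes lay between -0.43, for Arpc3, and 0.43, for Arpc2, with adjusted p from 0.777 to 0.996 and 95% intervals spanning -0.97 to 0.93. The difference between the ischemia response after anti-miR-210 and that after scramble was called for none of the 9 genes and for 0.0205% of all genes. It ranged from -0.96 to 0.56, with adjusted p from 0.468 to 0.932. Arpc2 was the only member with an unadjusted p under 0.05, at -0.96 ± 0.34 (95% interval -1.67 to -0.25, limma adjusted p = 0.468). Intervals of this width do not show that the oligonucleotides act alike on these genes.

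The non-ischemic groups were compared with untreated muscle to see whether these genes shifted with an oligonucleotide. Whether surgery elsewhere is part of this contrast is not known, since the labels do not say whether a non-ischemic muscle is the other leg of an operated mouse. None of the 9 was called after anti-miR-210, where 5.68% of all genes were, and none after scramble, where 2.87% were. Changes lay between -0.43 and 0.46 after anti-miR-210 (limma adjusted p 0.228 to 0.954, with 1 gene, Arpc5, under 0.05 unadjusted) and between -0.14 and 0.2 after scramble (adjusted p 0.821 to 0.992, 0 genes under 0.05 unadjusted). Of the 77 related actin genes, Coro1b fell by 0.95 ± 0.18 (adjusted p = 0.00378) and Fhod1, a formin, rose by 0.7 ± 0.18 (adjusted p = 0.0299) after anti-miR-210, and Vav2, an exchange factor, fell by 0.93 ± 0.25 (adjusted p = 0.046) after scramble. The liver transcripts of the 3 untreated arrays touch these comparisons, and no set of untreated arrays is free of them. With untreated replicate 1 as the lone untreated array, assumed to vary like the other groups, limma called 0 of the 9 genes and 0 of the 77 related genes after either oligonucleotide, the 9 after scramble with changes from -0.61 to 0.22, and without scramble non-ischemic replicate 1 the changes ran from -0.16 to 0.28. Leaving out that replicate left the ischemia response after scramble at 8 of 9 genes called, with changes from 0.23 to 3.83.

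Among themselves the 7 tested subunits shared a profile over the 19 arrays to different degrees. The root mean square distance of a gene's centred log2 profile from the mean profile of the subunits was 0.32 for Actr3 and Arpc3, 0.36 for Arpc4, 0.62 for Arpc2 and Arpc5, 0.85 for Arpc1a and 0.99 for Arpc1b, and for the activators it was 0.51 for Wasf2 and 0.98 for Was. Arpc1a and Arpc1b thus lay farthest from the mean among subunits, Arpc1a with a smaller and Arpc1b with a larger change. The genes outside the set with the profile nearest to the subunit mean were H2ac10, a histone gene, at 0.16, the mitotic kinase gene Aurkb at 0.18, Bid at 0.19, LOC100042970 at 0.2 and Rnf26 at 0.21. Those nearest to Was were Lhfpl2 at 0.26, Nrros, Myof and Cd84 at 0.3 and Cstb at 0.31. The profiles share the same arrays and the same ischemic shift, and a small distance says only that the values ran alike.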

How the data were processed

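Per the file headers, the deposited table gives for each of 45281 probes and 19 arrays an average bead intensity, not normalized, and a detection p-value against negative control beads. Per the labels' protocols, Trizol-extracted RNA was cleaned on RNeasy columns and made into biotinylated cRNA; the sources used here do not name the export software. The authors' second deposited table holds intensity values whose distribution is nearly equal between arrays (column medians 84.6), without background subtraction from the values, and served as an alternative. No slide or batch is labelled, 0 pairs of arrays were identical, and 0 per-sample columns were left out.

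Intensities were background-corrected, given an offset of 16, quantile-normalized and put on the log2 scale with neqc in limma 3.58.1 (R 4.3.3). Probes with a detection p-value under 0.05 on at least 3 of 19 arrays were kept (21083), and the probe with the highest mean stood for a gene (14646 genes). All arrays entered 1 limma fit with 5 group means and empirical Bayes moderation, and p-values were adjusted by Benjamini-Hochberg over all genes, or over all probes for probe results. A call means an adjusted p under 0.05. Probe names were updated through a RefSeq table on GRCm38.p6, used for names and neighbours: 27400 probes carried current symbols, 8298 older ones, 9543 kept the file's name and 40 carried dates. The number of arrays limits the precision.

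The 10 genes, the related gene lists and the cell type markers were chosen with earlier results of these data known. All 10 genes and their probes are described. Of each related list, up to 2 risen and 2 fallen genes with the smallest adjusted p after scramble are named, plus the paralogs, the few other genes called against untreated muscle and 3 that fell after anti-miR-210 and did not pass after scramble (Nckap1, Washc1, Actc1), chosen after their values were seen, and the 5 genes nearest in profile to the subunit mean and to Was. Alternatives were the background correction, offset, normalization, deposited table, filter, probe rule, array brightness, replicate block, arrays fitted and leaving out each replicate. The model was tested on simulated data. Figures used matplotlib 3.10.9 (Python 3.11.15). One of the related gene lists and a marker are not reported here by name.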

Additional observations from a re-analysis of the deposited data

Results flagged for a closer look

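In scramble non-ischemic muscle, Arpc4 on replicate 3 stood at 6.98, while the other 3 arrays of that group lay at 7.47, 7.46 and 7.47. Its gap to the nearest of them, as a share of the group's range, exceeded Dixon's 95% critical value for 4 samples. The same rule was applied to 36 sets of 4 arrays (9 genes in 4 groups) and met by this 1. Chance alone marks about 1 in 20 such groups.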

How the results depend on the processing

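Over all alternatives, 348 of 360 results for the 9 genes in both ischemia responses kept their side of the threshold. Of the rest, 1 no longer passed (Wasf2 after scramble, 0.62 with median scaling), 11 newly passed, all of Arpc1a, and 0 called values turned. In these counts direction was checked only for called values. A kept result that was not called may have changed sign, as Arpc1a after scramble did with median scaling (-0.24). After anti-miR-210, Arpc1a passed without anti-miR-210 ischemic replicate 2 (0.44, adjusted p = 0.0472) or 4 (0.45, 0.0376) or non-ischemic replicate 1 (0.52, 0.0105), and under 7 other settings. In the other 5 comparisons all 954 results stayed short of the threshold, some with a change of sign, so 0 members were called. The members called ranged from 7 to 9 after scramble and from 7 to 8 after anti-miR-210, and all paralog shifts kept their call. Of 1038 results for the other named genes 1017 were kept, 16 no longer passed, 3 newly passed and 2 turned, Actb (-0.08) and Acta1 (-0.52), both after anti-miR-210 with median scaling, which moved the median of all genes there to -0.39, and to 0.13 (scramble) and 0.17 (anti-miR-210) against untreated muscle.

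Counts of all genes called were less stable, and the cause was not tested. With array brightness as a covariate, 4820 genes were called after scramble in ischemia, 1 for anti-miR-210 in ischemic muscle, 1 in non-ischemic muscle and 0 for the difference of responses. Anti-miR-210 in ischemic muscle gave 159, but 91 with cyclic loess, 3675 with median scaling, 60 with no filter, 1 with only the groups compared, 67 without untreated 2 and 3, and 14 to 1182 leaving out a replicate. Anti-miR-210 in non-ischemic muscle gave 3, but 1 with no background correction, loess, median scaling, the authors' table or without untreated 2 and 3, 8 with no filter, 5 with the mean of probes, 0 with only the groups compared and 1 to 2 leaving out a replicate. The difference of responses gave 3, but 575 with median scaling, 1 with only the groups compared or without untreated 2 and 3, and 1 to 63 leaving out a replicate. Scramble against untreated gave 420, but 275 with no background correction, 235 with no filter, 110 with only the groups compared, 13 without untreated 2 and 3 and 199 to 602 leaving out a replicate. Anti-miR-210 against untreated gave 832, but 165 with only the groups compared, 40 without untreated 2 and 3 and 363 to 967 leaving out a replicate.

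Same-numbered ischemic and non-ischemic samples correlated at 0.05 to 0.24 in their deviations from group means (8 pairs, 3 over 0.1), different numbers at -0.13 to 0.09, and 15 of 16 samples correlated best with their own number, a hint from the data, not from the labels, that the numbers may pair them. Since the labels do not say so and 5 of the 8 pairs were not over 0.1, no pairing was assumed. With the replicate block, Arpc1a after anti-miR-210 passed (0.39, adjusted p = 0.0455), no other member call changed, the paralog shifts had an exact adjusted p of 0.00781, the smallest 256 sign changes allow, and anti-miR-210 in non-ischemic muscle and the difference of responses gave 1 and 0 genes. Signals near the floor of detection, as for Was, Vav1 and Nckap1l in non-ischemic muscle, limit how large a fold can be measured.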
